A study of Homo sapiens with 4 samples.

Results

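The transcripts of 10 enzyme genes that make fatty acids or activate them were followed in colon cell lines with and without sturgeon chondroitin sulfate (SCS). The genes were ACLY and ACSS2, ACACA and ACACB, FASN, ELOVL6, SCD, FADS1, FADS2 and ACSL1, taken by their symbol from a table in which 18650 loci held at least 1 fragment in at least 1 library. These 10 genes were chosen by values measured in the same libraries: their changes with SCS and between the cell lines were already known. Their counts and fold changes are therefore a description, without a test, and are no independent support for any statement on the pathway.

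The cells were HT-29, an adenocarcinoma line of human colon, and NCM460, a human colon line that stood for normal colon. Each line was grown without SCS (control) or with SCS, a sulfated glycosaminoglycan prepared from sturgeon, at 100 μg/mL for 24 h. The authors' methods name a higher share of fetal bovine serum in the medium of NCM460 than of HT-29. Line and serum share therefore cannot be told apart. RNA-seq gave 1 library per condition, 4 in all. No difference between conditions has a replicate check, each line stands for 1 source of cells, and the intervals below cover counting error only.

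The libraries held between 1156568 and 1654764 fragments (read pairs assigned to a locus), of which 507692 to 1383424 were nuclear. Fragments of the mitochondrial genome made up 35.8% of the HT-29 control, 13.8% of HT-29 with SCS, 62.3% of the NCM460 control and 46.3% of NCM460 with SCS. Of 12 markers of colon epithelium, 8 had more than 3 fragments in each HT-29 library and 6 in each NCM460 library. CDX1 and GPA33 were listed at 0 in all 4 libraries, and KRT20, VIL1, LGALS4 and CDH17 were listed at 0 in both NCM460 libraries, where EPCAM, CDH1, KRT8, KRT18, KRT19 and CDX2 were the 6 markers detected. In HT-29, CDX2 was listed at 0 in both libraries, and CDH17 held 1 fragment in the control and 0 with SCS. The summed level of the 12 markers was 6526 CPM and 3535 CPM in the HT-29 control and SCS libraries, and 4346 CPM and 2659 CPM in the NCM460 ones. KRT8 and KRT18 carried the HT-29 sum, from 7024 to 3518 and from 4453 to 2676 fragments. KRT19 went from 720 to 375 and VIL1 from 138 to 24. KRT20 went from 119 to 306, LGALS4 from 138 to 464 and CDH1 from 267 to 526. These fragments are not scaled for depth. EPCAM went from 492 to 605 fragments but from 138 to 106 FPKM (fragments scaled by transcript length and library size), so its direction rests on the scaling. CPM is the count scaled to library size, here with TMM factors, which set the bulk of loci level between libraries. The 10 mesenchymal markers summed to 5.87 and 8.74 CPM in HT-29 and to 119 and 134 CPM in NCM460. Of tissues that make much fat, the 6 fat cell markers had at most 1 fragment in any library, and ALB, APOA1, APOB and TTR of the liver were listed at 0 in every library, while SERPINA1 held 486 and 426 fragments in HT-29. The part of these differences in the results below was not tested. In such bulk RNA, fewer expressing cells and less RNA per cell cannot be told apart.

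Cells build fatty acids in the cytosol from acetyl-CoA, which ATP citrate lyase (ACLY) releases from citrate and acetyl-CoA synthetase 2 (ACSS2) makes from acetate. Acetyl-CoA carboxylases (ACACA, ACACB) form malonyl-CoA, fatty acid synthase (FASN) joins these units to palmitate, ELOVL6 lengthens it, stearoyl-CoA desaturase (SCD) puts in a double bond, FADS1 and FADS2 act on polyunsaturated chains, and ACSL1 joins long-chain fatty acids to coenzyme A. Many of these genes are known targets of the sterol regulatory element binding proteins, and colorectal tumours commonly express FASN strongly.

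Promoter windows for 9 of the genes were found in RefSeq (GRCh38.p14), with 19 start sites in all and 300 bases each, 250 before and 50 after the start site. FASN had no entry. The 250 bases before the start are shown for SCD, the gene of the set with the highest HT-29 levels, and for the second listed start of ACSS2, the gene with the largest increase with SCS in HT-29. Capitals mark CCAAT boxes (CCAAT, or ATTGG on the other strand) and GC boxes (GGGCGG or CCGCCC).
SCD, chr10:100346983-100347232, plus strand: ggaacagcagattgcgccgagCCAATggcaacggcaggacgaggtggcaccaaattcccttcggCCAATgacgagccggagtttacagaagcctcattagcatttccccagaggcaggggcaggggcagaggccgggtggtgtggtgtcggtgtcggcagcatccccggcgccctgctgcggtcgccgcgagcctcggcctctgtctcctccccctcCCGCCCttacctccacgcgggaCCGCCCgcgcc
ACSS2, chr20:34876362-34876611, plus strand: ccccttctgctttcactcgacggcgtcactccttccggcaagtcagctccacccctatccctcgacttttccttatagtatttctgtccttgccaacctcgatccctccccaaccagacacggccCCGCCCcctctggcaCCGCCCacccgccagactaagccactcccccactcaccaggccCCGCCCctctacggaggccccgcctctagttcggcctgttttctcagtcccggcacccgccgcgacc
The SCD window held 2 CCAAT boxes and 2 GC boxes, and the ACSS2 window held 3 GC boxes. At one or more start sites, 7 of the 9 genes had a CCAAT box and 9 of 9 had a GC box, whereas 34.6% and 44.9% of 34943 RefSeq promoter windows of the same length held these letters. By start site, which is the like comparison, the boxes were found in 9 and 13 of the 19 windows, some of which overlap. The sterol regulatory element TCACNCCAC, searched on both strands, was found in 1 of the 19 windows, an ACSL1 start, and in 1.12% of all windows. The E-box CACGTG was found in none of the 19 and in 7.23% of all. A match of letters is a description, and no match says only that the letters are not in this window.

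Levels of different genes can be compared as FPKM, fragments scaled by transcript length and library size, which the deposited table gives. In both HT-29 libraries SCD had the highest FPKM of the 10 genes and FASN the next, and in both NCM460 libraries FASN came first and SCD second. SCD measured 263 FPKM in the HT-29 control and 531 FPKM with SCS, against 91.4 and 103 FPKM in NCM460. FASN measured 82.3 and 158 FPKM in HT-29 without and with SCS, then 155 and 115 FPKM in NCM460 without and with SCS, and each set of 4 values below keeps this order. The counting intervals of FASN and SCD were apart in 3 libraries and overlapped in NCM460 with SCS. The lowest of the 10 were FADS1 in the HT-29 control, at 1.71 FPKM, ACACB in HT-29 with SCS, at 0.585 FPKM, ELOVL6 in the NCM460 control, at 0.966 FPKM, and ACACB in NCM460 with SCS, at 1.57 FPKM. In the middle of the order, neighbours such as ACACA and ACLY or FADS2 and ACSS2 in the HT-29 control had overlapping intervals and were not separated. In the NCM460 control, 6 consecutive pairs of neighbours from FADS2 at 36.4 FPKM down to ELOVL6 overlapped in the same way.

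**Figure D1:**
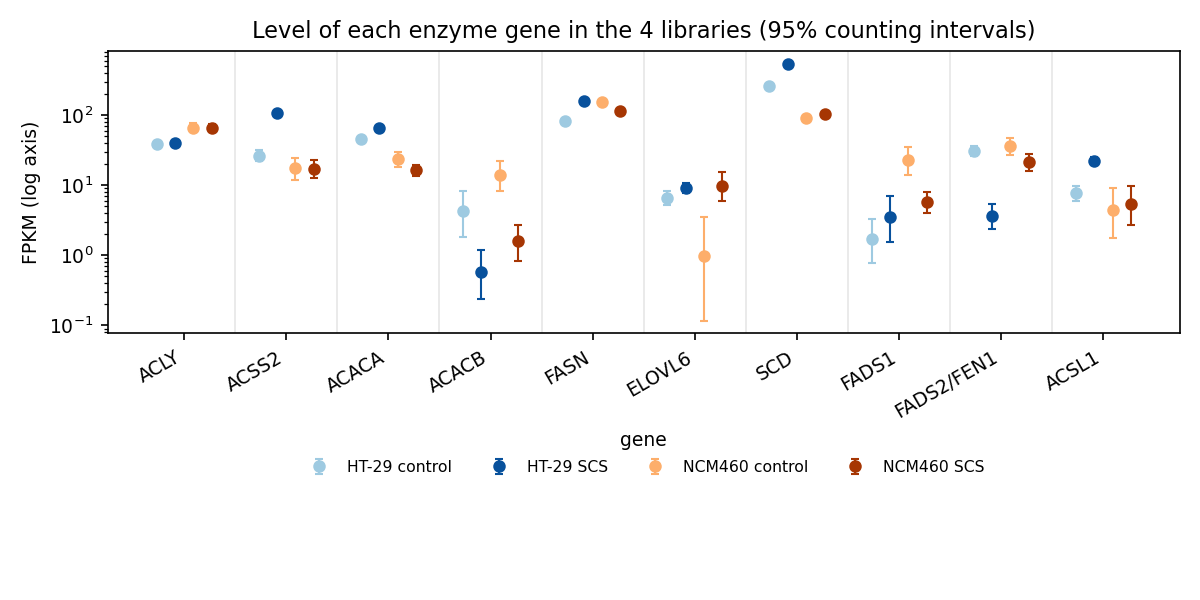
FPKM on a log axis for the 10 genes in the 4 libraries, with 95% counting intervals (counting error only, 1 library per condition). SCD was highest in both HT-29 libraries, at 263 and 531 FPKM, and the FADS2 row, which also holds FEN1, stood at 3.62 FPKM in HT-29 with SCS against 31.0 FPKM in the control.

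Together the 10 rows held 6373, 14307, 1758 and 2379 fragments, or 600, 1034, 346 and 383 per 100000 nuclear fragments. Per nuclear fragment, the total was higher with SCS in each line and higher in HT-29 than in NCM460. The direction in NCM460 depends on the scaling. With TMM factors, FASN went there from 1338 to 1049 CPM and SCD from 434 to 595 CPM. SCD and FASN made up 72.4%, 79.2%, 78.5% and 74.7% of the total, so sums over the set mostly follow these genes.

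The first question was how the 10 genes changed with SCS in HT-29. A locus was called when its fold change exceeded 1.5 and its 95% counting interval excluded no change. With SCS, 5 of the 10 genes were called higher (ACSS2, ACSL1, SCD, FASN and ELOVL6) and 1 lower (the FADS2 row), beside 16.8% and 14.8% of the 12168 loci compared. These genes were chosen with this contrast known, so nothing is read from the counts. The median log2 fold change was 0.44 over the 10, from -2.69 to 2.23, and 0.07 over all loci. In NCM460, 1 of 10 was called higher (ELOVL6) and 0 lower, beside 15.4% and 13.8% of 12657 loci. The median there was 0.17 over the 10 and 0.03 over all loci.

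Among the genes that supply acetyl-CoA, ACSS2 moved and ACLY hardly did. ACSS2 held 122, 682, 32 and 45 fragments. The HT-29 library with SCS stood far above the other 3, and its log2 fold change over the control, 2.23 (1.97 to 2.54), ranked 119 from the highest of 12168 loci. In NCM460 the value was 0.02 (-0.67 to 0.72). The authors' published list of changed genes, given in FPKM, differs from the deposited values for HT-29. It gives ACSS2 a slightly lower level with SCS and ACSL1 a smaller rise than here. For ACACB it gives a strong fall. The deposited FPKM of ACACB also fell, from 4.26 to 0.585, whereas its fragments were 8 and 7. The reason for these differences was not tested. ACLY held 450, 634, 184 and 292 fragments, and its log2 fold changes were 0.26 (0.09 to 0.44) in HT-29 and 0.19 (-0.08 to 0.47) in NCM460, neither of which was called. The pair can be compared inside each library, where no scaling enters. ACSS2 gave 21.3% (18.04 to 24.9) of the fragments of the pair in the HT-29 control and 51.8% (49.1 to 54.6) with SCS, and 14.8% (10.4 to 20.3) and 13.4% (9.91 to 17.5) in NCM460, by exact binomial intervals. In HT-29 the share thus more than doubled, and in NCM460 the intervals overlapped.

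**Figure D2:**
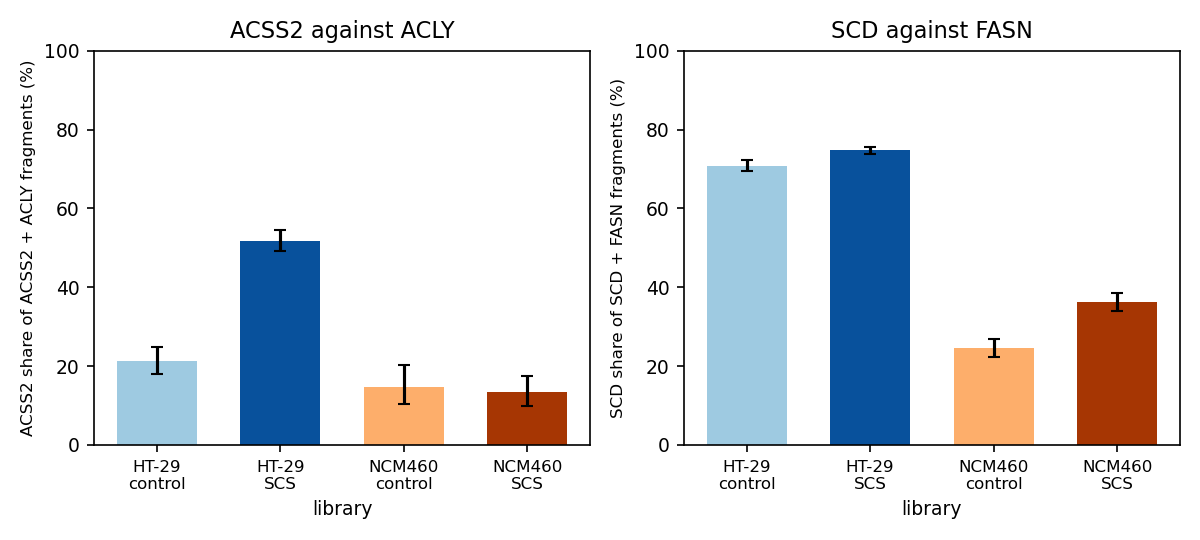
Share of ACSS2 in the fragments of ACSS2 and ACLY, and of SCD in those of SCD and FASN, in percent for each library, with exact 95% binomial intervals that cover counting error only. ACSS2 went from 21.3% to 51.8% in HT-29 with SCS and stood at 14.8% and 13.4% in NCM460, and SCD stood at 70.9% and 74.7% in HT-29 and at 24.5% and 36.2% in NCM460.

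Of the carboxylases, which commit acetyl-CoA to fatty acid synthesis, ACACA is the main cytosolic form and ACACB sits at the mitochondrial surface. ACACA held 871, 1237, 65 and 134 fragments. Its change with SCS was 0.27 (0.15 to 0.40) in HT-29, under the 1.5-fold limit, and 0.56 (0.13 to 1.02) in NCM460, just under it. ACACB was at 8, 7, 17 and 13 fragments, too few to separate the libraries of a line. ACACB gave 0.910% (0.394 to 1.79) and 0.563% (0.227 to 1.16) of the carboxylase fragments in the HT-29 libraries and 20.7% (12.6 to 31.1) and 8.84% (4.79 to 14.6) in the NCM460 ones. By FPKM, ACACB and ACACA stood at 4.26 and 45.2 in the HT-29 control and at 14.0 and 23.7 in the NCM460 control. With SCS they stood at 0.585 and 64.7 FPKM in HT-29 and at 1.57 and 16.3 FPKM in NCM460. At like treatment, ACACB thus made up more of the pair in NCM460 by FPKM as well.

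FASN makes palmitate, and its change had a different sign in the lines under the TMM scaling. Its row held 1345, 2867, 1042 and 1134 fragments. In HT-29 the library with SCS was the higher, at a log2 fold change of 0.86 (0.77 to 0.95) or 1.81-fold. In NCM460 the fragments were near level before scaling, and the scaled log2 fold change was -0.35 (-0.47 to -0.23), not called. The difference between the lines, HT-29 minus NCM460, was 1.21 (1.06 to 1.37). FASN transcripts are rich in G and C, at 65.3%, above 96.5% of the loci. In NCM460 the change with SCS fell with GC content over all loci (Spearman's rho -0.62 over 12600 loci, a description across genes of 2 libraries), against -0.12 over 12106 loci in HT-29. Measured from the trend of loci of like GC content, FASN stood at 0.87 in HT-29 and at 0.38 in NCM460, and the difference between the lines was 0.49 (0.34 to 0.65). With scaling by total fragments only, the NCM460 value was 0.34, so the direction for FASN in NCM460 rests on the scaling. The part of GC content in these libraries' differences was not tested.

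**Figure D3:**
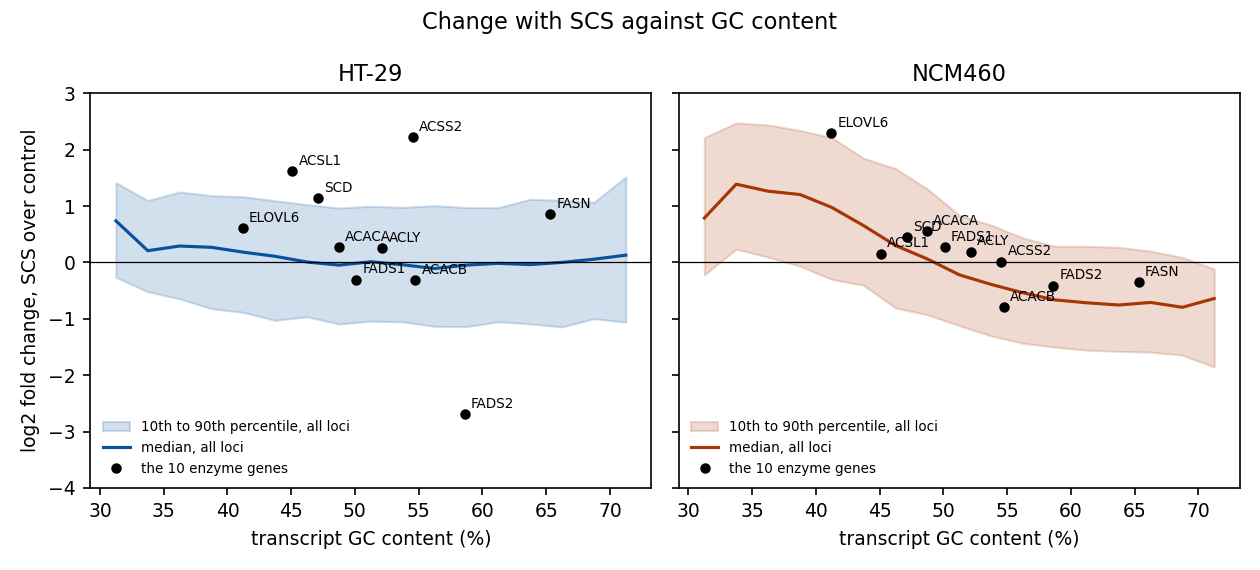
Log2 fold change with SCS against transcript GC content in percent, for HT-29 and NCM460, with the median and the 10th to 90th percentile of all loci in bins of 2.5 percentage points and the 10 genes as points. In NCM460 the median of all loci declines with GC content and FASN, at -0.35, lies above it, while in HT-29 the median declines less, from 0.27 at 37.5% to 40% GC to 0.01 at 45% to 47.5% GC, and ACSS2, ACSL1 and SCD lie above the band.

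ELOVL6, the elongase of palmitate, held 75, 136, 2 and 19 fragments. It was called higher with SCS in both lines, at 0.61 (0.21 to 1.05) in HT-29 and 2.30 (0.72 to 5.92) in NCM460, the latter from 2 fragments in the control. Neither call held beside loci of like GC content, where the values were 0.43 and 1.33. Its transcript has 41.2% GC.

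SCD, the desaturase of stearate and palmitate, held 3270, 8464, 338 and 644 fragments, the largest count of the 10 genes in each HT-29 library. Its log2 fold change was 1.14 (1.08 to 1.20) in HT-29, or 2.20-fold, and 0.46 (0.26 to 0.65) in NCM460, under the limit for a call. The difference between the lines was 0.68 (0.48 to 0.88). Against FASN in the same library, SCD gave 70.9% (69.5 to 72.2) of the pair's fragments in the HT-29 control and 74.7% (73.9 to 75.5) with SCS, and 24.5% (22.2 to 26.9) and 36.2% (34.0 to 38.5) in NCM460. By fragments the share was higher with SCS in each line and higher in HT-29 than in NCM460. SCD transcripts have 47.1% GC against 65.3% for FASN. After the GC trend was taken off, the change in NCM460 was 0.20 for SCD and 0.38 for FASN, so the order of this pair turned round, and the difference between the lines without SCS was 1.62 for SCD and 0.06 for FASN.

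FADS1, the delta-5 desaturase, was at 9, 8, 20 and 34 fragments, in a row that also carries MIR1908. Its log2 fold changes, -0.30 (-1.98 to 1.14) and 0.28 (-0.55 to 1.17), did not separate the libraries of either line. The FADS2 row held 157, 26, 51 and 53 fragments. HT-29 with SCS was the lowest of the 4, and the log2 fold change in HT-29, -2.69 (-3.48 to -2.22), ranked 53 from the lowest of 12168 loci. In NCM460 it was -0.41 (-1.001 to 0.17). This row has the same counts and FPKM in every library as that of FEN1. FEN1 is a flap endonuclease gene of DNA replication that overlaps FADS2 in the table. The authors' published list for HT-29 names FEN1, under DNA replication and at a lower level with SCS, and does not name FADS2. Which of these genes the deposited fragments came from cannot be told apart. Without this row the 9 remaining genes had 0 called lower and a median of 0.61.

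ACSL1, which activates long-chain fatty acids for esterification or oxidation, held 66, 246, 7 and 11 fragments. The HT-29 library with SCS was well above its control, at 1.63 (1.27 to 2.08) or 3.09-fold. NCM460, with few fragments, gave 0.16 (-1.32 to 1.78). The difference between the lines, 1.47 (-0.18 to 3.05), included 0 by fragments and was 1.92 (0.27 to 3.50) after the GC trends were taken off.

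**Figure D4:**
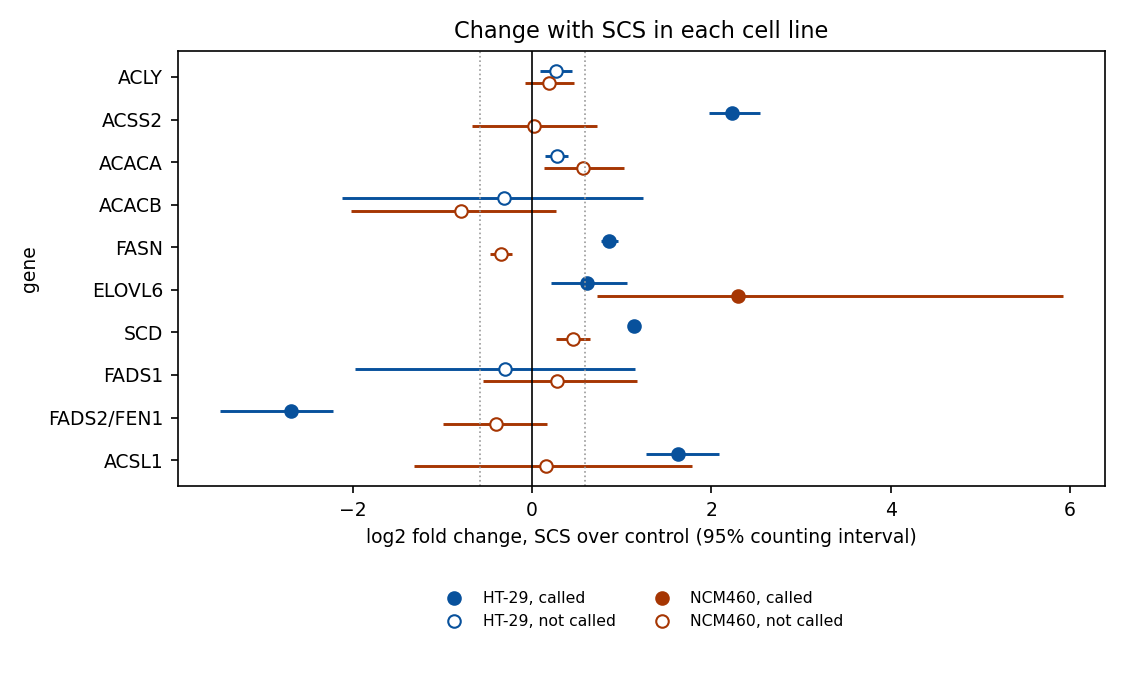
Log2 fold change of each gene, SCS over control, in HT-29 and NCM460, with 95% counting intervals. Filled points were called, and dotted lines mark a fold of 1.5. In HT-29, ACSS2 lies at 2.23 and the FADS2/FEN1 row at -2.69, and in NCM460 ELOVL6 alone of the 10 was called, from 2 fragments in the control.

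The changes of the lines were then set against each other as the difference of log2 fold changes, HT-29 minus NCM460. By counting error, 3 of the 10 differences lay above 0 (ACSS2 at 2.21, FASN at 1.21 and SCD at 0.68), 2 lay below (the FADS2 row at -2.28 and ELOVL6 at -1.69) and 5 included 0, beside 13.0% above and 17.4% below of 10849 loci tested in both lines. After the GC trends were taken off, 4 lay above and 1 below, since ACSL1 joined the first group and ELOVL6, at -0.90 (-4.54 to 0.76), left the second, beside 9.99% above and 12.6% below of 10808 loci. Nothing is read from these counts, since the genes were chosen with the contrast known. ACSS2 then stood at 1.81 (1.07 to 2.58) and SCD at 0.94 (0.74 to 1.14). Such a difference compares 4 libraries and has no replicate check.

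The second question was how the lines, grown at unlike shares of serum, differed. Without SCS, 4 of the 10 genes were called higher in HT-29 than in NCM460 and 3 lower, beside 25.3% and 23.1% of 12691 loci. Under SCS, 5 were called higher and 3 lower, beside 24.2% and 22.4% of 13050 loci. Both contrasts were known when the genes were chosen and nothing is read from the counts. Median log2 fold changes were 0.37 and 0.90 over the 10, and 0.10 and 0.05 over all loci.

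ACACA, SCD, ELOVL6 and ACSL1 were called higher in HT-29 both without and under SCS. Their log2 fold changes, HT-29 over NCM460, were 2.33 and 2.04 for ACACA, 1.88 and 2.56 for SCD, 3.31 and 1.62 for ELOVL6 and 1.71 and 3.18 for ACSL1. The first ELOVL6 value rests on 2 fragments in the NCM460 control, and the second lost its call and its sign by FPKM, at -0.08. ACACB, at -2.16 and -1.67, and FADS1, at -2.25 and -2.83, were called lower in HT-29 both times, at no more than 34 fragments in any library. Under SCS the ACACB call was lost with total counts, at -1.14, and the FADS1 call by FPKM, at -0.56. ACLY stood at -0.10 (-0.35 to 0.15) and -0.03 (-0.24 to 0.17) by fragments, not called. It was called higher in HT-29 with total counts, at 0.99 and 0.64, and lower by FPKM, at -0.77 and -0.69, so its direction rests on the scaling.

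By fragments, ACSS2 and the FADS2 row were called between the lines under SCS and not without it. ACSS2 was at 0.52 (-0.03 to 1.15) without SCS and 2.73 (2.33 to 3.24) under it. The FADS2 row went from 0.22 (-0.24 to 0.71) to -2.06 (-2.92 to -1.48). FASN was called lower in HT-29 without SCS, at -1.02 (-1.14 to -0.91), and stood at 0.19 (0.09 to 0.29) under SCS. The first of these values did not keep its sign: it was 0.06 after the GC trend was taken off and 0.07 with scaling by total fragments. ACSS2 without SCS, at 0.95, and the FADS2 row, at 0.92, were in turn called higher once the GC trend was taken off.

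**Figure D5:**
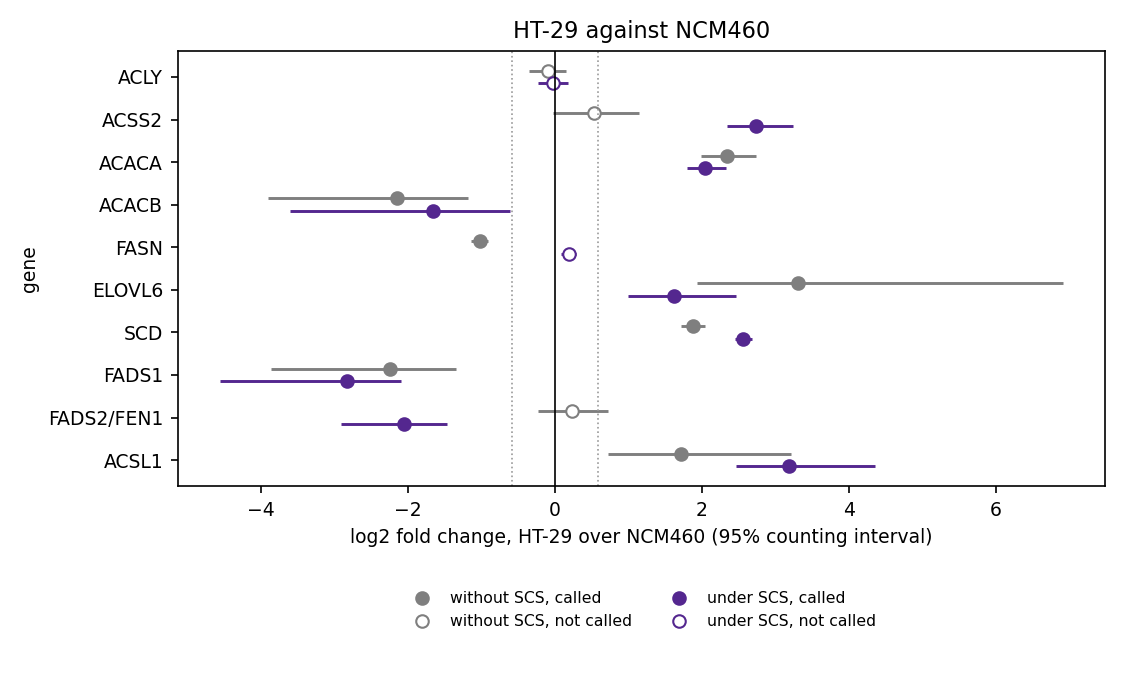
Log2 fold change of each gene, HT-29 over NCM460, without and under SCS, with 95% counting intervals. Filled points were called, and dotted lines mark a fold of 1.5. ACACA, SCD, ELOVL6 and ACSL1 lie above 0 and ACACB and FADS1 below 0 in both settings (by FPKM, ELOVL6 under SCS is at -0.08), whereas ACSS2 reaches 2.73 under SCS from 0.52 without it.

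In 5 of the 10 genes the transcript length implied by the deposited FPKM and fragments varied between libraries by more than the 90th percentile of well covered loci. The largest implied length was 8.50 times the smallest for ACACB, 6.08 times for FADS1, 3.32 times for ELOVL6 and 2.36 times for ACACA and for ACSL1, compared with a median of 1.46 and a 90th percentile of 2.30 over 3094 loci with at least 20 fragments in every library, a depth that ACACB, FADS1, ELOVL6 and ACSL1 did not reach. FADS1 went from 1.71 to 3.57 FPKM in HT-29 and from 22.9 to 5.74 FPKM in NCM460 with SCS, against near-level fragments in HT-29 and more fragments in NCM460. ACACA in NCM460 went from 23.7 to 16.3 FPKM while its fragments went from 65 to 134. For ACSS2, SCD and FASN the implied length differed by 1.18, 1.22 and 1.31 times only.

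Other genes of the pathway were described from lists that were also drawn up with earlier results known. The counts with SCS for the lists below stand beside 16.8% higher and 14.8% lower of all loci in HT-29. In NCM460 these shares were 15.4% and 13.8%. After the GC trend was taken off, they were 14.6% and 16.0% in HT-29 and 5.77% and 6.43% in NCM460. Nothing is read from the counts. The highest and lowest genes of a list are named among those with a mean of at least 5 CPM. Of 12 tested genes that supply or handle malonyl-CoA, NADPH or mitochondrial synthesis, 4 were called higher and 1 lower in HT-29 with SCS, with a median of 0.42. ME1, the malic enzyme that yields cytosolic NADPH, held 78, 257, 5 and 52 fragments and was the highest of the list in both lines, at 1.46 (1.12 to 1.87) and 2.68 (1.59 to 4.59). It was called after the GC trend was taken off as well, at 1.23 and 1.56. ACSS1, the mitochondrial acetyl-CoA synthetase, was the lowest in HT-29, at -1.05 (-1.90 to -0.41), and was listed at 0 in NCM460. In NCM460, 2 of 11 were called higher and 3 lower, and the lowest was ACSF3, which activates malonate in mitochondria, at -1.48 (-2.36 to -0.76).

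Of the other elongation genes, 2 of 7 were called higher and 1 lower in HT-29, with a median of 0.16. ELOVL7, an elongase of long saturated chains, went from 15 to 74 fragments, 1.90 (1.26 to 2.98), and HACD3, a dehydratase of the cycle, from 157 to 62, -1.53 (-2.02 to -1.14). In NCM460, 3 of 10 were called higher and 1 lower. Among genes there at a mean of at least 5 CPM, the ketoreductase HSD17B12 was the highest, at 2.32 (1.44 to 3.63). TECR, which performs the last reduction, was the lowest of them, at -1.22 (-1.65 to -0.83). Among the other desaturation genes, FADS3 held 13 fragments in the HT-29 control and 89 with SCS, 2.33 (1.70 to 3.51), where 1 of 7 was called higher and 2 lower and the median was -0.53. CYB5R4, a cytochrome b5 reductase, was the lowest there, at -0.66 (-1.77 to 0.23), not called. In NCM460 CYB5R4 was the highest, going from 0 to 11 fragments, and CYB5R1 of the same family the lowest, at -0.97 (-3.11 to 0.64), not called. In that line 1 of 7 was called each way, and 0 after the GC trend was taken off.

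Of the other activating enzymes, 3 of 11 were called higher and 1 lower in HT-29, with a median of 0.52, and 2 of 10 each way in NCM460. ACSL4, which prefers arachidonate, was the highest in both lines, at 1.36 (1.03 to 1.76) from 84 to 258 fragments and at 2.23 (1.16 to 3.92) from 6 to 44 fragments. After the GC trend was taken off, it stood at 1.10 (0.77 to 1.503) in HT-29 and 0.98 (-0.08 to 2.67) in NCM460, no longer called there, and 0 of the 10 were called higher in NCM460. Its row is shared with KCNE5. ACSF2 was the lowest in HT-29, at -0.72 (-1.53 to -0.05), a call that was lost after the GC trend was taken off. In NCM460 the lowest was the row of SLC27A3, a fatty acid transport protein, which is shared with INTS3, at -1.18 (-1.998 to -0.47).

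Between the lines without SCS, 3 of 12 genes of the malonyl-CoA list were called higher in HT-29 and 4 lower, 4 of 9 and 2 of 9 of the elongation list, 2 of 8 and 5 of 8 of the desaturation list, and 7 of 11 and 2 of 11 of the activation list. Over all loci, 25.3% were called higher and 23.1% lower in this contrast, and nothing is read from the counts. ELOVL5, an elongase of polyunsaturated chains, was listed at 0 in both HT-29 libraries and held 12 and 55 fragments in NCM460. SCD5, the second stearoyl-CoA desaturase, held 10, 0, 22 and 24 fragments, with 0 in HT-29 with SCS.

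Of 17 regulators of these genes, 5 were called higher and 1 lower in HT-29 with SCS, and 3 each way in NCM460. INSIG1, which holds the SREBP precursors in the endoplasmic reticulum and is itself an SREBP target, held 162, 1028, 16 and 87 fragments. It was higher with SCS in both lines, at 2.42 (2.19 to 2.68) and 1.91 (1.19 to 2.84), and was called in both after the GC trend was taken off. SREBF1 and SREBF2, which encode the SREBPs and were named after their values were seen, gave 0.41 (0.08 to 0.77) and 0.41 (0.20 to 0.63) in HT-29, neither called. In NCM460 they gave -0.78 (-1.26 to -0.33), called lower, and -0.22 (-0.51 to 0.07), and after the GC trend was taken off neither was called, at -0.08 and 0.35. PPARG, a lipid-sensing nuclear receptor, was the lowest regulator in HT-29, at -0.70 (-1.22 to -0.25), and went from 3 to 23 fragments in NCM460. Of 22 sterol synthesis and uptake genes, many of which are SREBP targets as well, 20 were called higher and 0 lower in HT-29 with SCS, and 8 higher and 2 lower of 21 in NCM460. Over all loci, 16.8% were called higher and 14.8% lower in HT-29, and 15.4% and 13.8% in NCM460. After the GC trend was taken off, 9 sterol genes were called higher and 0 lower in NCM460, beside 5.77% and 6.43% of loci. In HT-29 the sterol counts stayed at 20 and 0, beside 14.6% and 16.0%. This list was drawn up with earlier results known, so nothing is read from the counts.

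In the table, on GRCh38, the genes lie at chr17:82078338-82098332 (FASN), chr17:41866908-41930542 (ACLY), chr20:34872146-34927962 (ACSS2), chr12:109116595-109268226 (ACACB), chr4:110045846-110199199 (ELOVL6), chr10:100347124-100364834 (SCD), chr11:61799625-61829318 (FADS1), chr11:61792980-61867354 (FADS2) and chr4:184755595-184826818 (ACSL1). ACACA is listed under an alternate locus of chromosome 17 and is placed by GENCODE release 29 at chr17:37084988-37406818. FADS1, on the minus strand, and FADS2, on the plus strand, overlap in these coordinates, and the sources used here do not state a strand setting for the counting.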

How the data were processed

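Total RNA of HT-29 and NCM460 cells, control and SCS, was sequenced as paired ends, 1 library per condition, and samples were grouped by the submitters' labels. The authors deposited 1 table with a count and an FPKM column per library. The submitters' processing notes name bcl2fastq 2.17.1.14, cutadapt 1.9.1, Bowtie2, HTSeq 0.6.1 and the build hg19, whereas the authors' methods name Cuffdiff and the table's coordinates are those of GRCh38. Which of these made the values, and the annotation release, are not given in the sources used here. The deposited counts are not whole: they are a signal of fragments over a library's size factor, so 1 fragment is worth 0.686, 0.577, 2.04 and 1.33 units. Division gave whole numbers, within 0.02, for 99.8% of values above 0 in each library and for 100% under 200 fragments. The design had assumed whole counts. The FPKM values the authors deposited were used as levels.

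Of 64962 rows, 26 had no gene name (0.040% to 0.094% of fragments) and were left out. Neighbouring rows with identical values in every count and FPKM column were merged, which gave 18650 loci. Of these, 1812 held more than 1 gene, and their values are uncertain. Fragments were scaled by TMM (edgeR 4.0.16) over 4 libraries, and log2 fold changes were taken with a prior count of 2 where both libraries averaged 1 CPM or more. Intervals of fold changes and shares are exact Clopper-Pearson at 95%. At the same level, those of differences between the lines' changes are exact conditional odds-ratio intervals, and those of FPKM are exact Poisson intervals. With 1 library per condition, a count test of a single comparison has no residual degrees of freedom. An added edgeR quasi-likelihood fit of line and SCS as additive terms on the recovered fragments has 1. GC content came from GENCODE release 29 (98.9% of loci), and its lowess trend (span 0.3) was subtracted as an alternative. A floor of 3 fragments corresponds to 1.25 to 3.85 CPM. The scripts were tested on simulated data.

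The 10 genes and the lists were chosen with earlier results of these data known. The lists cover malonyl-CoA supply, elongation, desaturation, activation, regulators, AMPK, glycerolipid and sterol synthesis, and colon, mesenchymal, fat cell and liver markers. The text names all 10 genes and, of each list in each line, the genes with the highest and lowest change with SCS at a mean of at least 5 CPM, where it describes that list, and regulators. Genes named beyond this (FEN1, SCD5, ELOVL5) were chosen after their values were seen. Alternatives were DESeq2 1.42.0 size factors, total counts only, nuclear genes only, FPKM, a prior count of 0.5, GC and length trends, thinning, a mean of 5 CPM, all loci, a fold of 2, and, added later, leaving out FADS2.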

Additional observations from a re-analysis of the deposited data

Results flagged for a closer look

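With the TMM scaling, the log2 fold change of FASN with SCS was 0.86 in HT-29 and -0.35, not called, in NCM460, and the difference of its log2 fold changes, HT-29 minus NCM460, was 1.21. With 1 library per condition the difference was not tested, and its interval (1.06 to 1.37) covers counting error only. With total counts the NCM460 value was 0.34. After the GC trends were taken off, both lines lay above 0 (0.87 and 0.38) and the difference was 0.49.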

How the results depend on the processing

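No paired analysis was possible because each group holds 1 library, with a number given in accession order. Of 360 values of single genes under the alternatives, 288 stayed within the counting interval and 72 did not. The sign changed in 25, of which 22 were not called to begin with (such as FASN in NCM460, 0.34 with total counts and 0.38 with the GC trend taken off, and ACACA in NCM460, -0.51 by FPKM). The 3 called ones were FASN between the lines without SCS, at 0.072 with total counts and 0.063 with the GC trend taken off, and ELOVL6 between the lines under SCS, at -0.083 by FPKM. In HT-29 with SCS, FPKM gave 2 genes lower, a fold of 2 gave 3 higher (9.78% of loci), and leaving out FADS2 gave 0 lower. In NCM460, total counts gave 6 higher and a median of 0.80, FPKM gave 3 lower and a median of -0.22, the GC trend gave 0 higher, and the length trend gave 3 lower (15.9% of loci) and a median of -0.004. Between the lines without SCS, total counts gave 7 higher. Total counts moved the median of all loci by 0.24, 0.62, 1.02 and 0.58 in HT-29, NCM460, and the lines without and under SCS, with 24.9%, 32.6%, 50.7% and 40.0% of loci called higher and 8.81%, 2.05%, 8.87% and 12.3% lower. FPKM moved it by -0.16, -0.30, -0.44 and -0.31, with 17.4%, 22.3%, 24.9% and 23.9% higher and 25.5%, 36.8%, 43.2% and 38.9% lower. Beside a GC trend, 5.77% of loci were called higher and 6.43% lower in NCM460. The cause of these shifts was not tested. The added count test, with 1 residual degree of freedom, found 2099 of 12942 loci for the line term and 9 for the SCS term at an adjusted p under 0.05, and 3759 and 695 unadjusted. Counting depth limits ACACB, FADS1 and, in NCM460, ELOVL6 and ACSL1.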

Other observations

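Glycerolipid synthesis joins fatty acids to glycerol. Of 13 tested genes of glycerolipid synthesis and storage, 3 were called higher and 1 lower in HT-29 with SCS, with a median of 0.19, and 0 higher and 2 lower in NCM460, where 0 were called either way after the GC trend was taken off. These counts stand beside 16.8% higher and 14.8% lower of all loci in HT-29 and 15.4% and 13.8% in NCM460. After the GC trend was taken off, the shares in NCM460 were 5.77% and 6.43%. LPIN1, a phosphatidate phosphatase that makes diacylglycerol, went from 35 to 164 fragments in HT-29, a log2 fold change of 1.92 (1.46 to 2.57), and from 8 to 16 in NCM460, 0.48 (-0.78 to 1.96). AGPAT5, an acyltransferase earlier in the same route, was the lowest of the list at a mean of 5 CPM in HT-29, at -0.79 (-2.04 to 0.14), not called. In NCM460, AGPAT2 was the lowest, at -1.24 (-2.06 to -0.55).

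AMPK phosphorylates and inhibits acetyl-CoA carboxylase. Of 6 tested genes of its subunits and its kinase STK11, 1 was called higher in HT-29 with SCS, PRKAB2, at 1.26 (0.57 to 2.26) from 17 to 52 fragments, and 0 lower. The lowest, PRKAG1, in a row shared with KMT2D, stood at -0.13 (-0.31 to 0.05). In NCM460, 2 of 7 were called each way, and 0 higher and 1 lower after the GC trend was taken off. Beside these counts, 16.8% of all loci were called higher and 14.8% lower in HT-29. In NCM460 the shares were 15.4% and 13.8%, and 5.77% and 6.43% after the GC trend was taken off. Nothing is read from the counts.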
